A study of Mus musculus with 18 samples.

Results

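The 10 genes described here encode ATRX, its partner DAXX and other proteins that supply or deposit the replacement histone H3.3, together with the histone variant macroH2A1. They were taken from the 24100 genes of each count table by their Entrez gene identifiers, and all 10 were listed and passed the filter on low counts in both tables. RNA was sequenced from C3H/10T1/2 (CCL-226) mouse mesenchymal progenitor cells (MPCs) kept in their usual growth medium, in 9 polyA-selected and 9 rRNA-depleted libraries. *Atrx* WT was the line that received the Cas9 vector without an sgRNA. The *Atrx* knockouts (KO) were clone G7 made with sg5 and clone B10 made with sg6, both grown from sorted single cells after transient transfection, so each KO group is a single clone. The paper's workflow names the WT control in the same steps of transfection and single-cell seeding. Both clones were compared with this same WT line, so a trait of that line would enter both comparisons. Each group had 3 libraries of each kind, and the labels do not say whether these came from separate cultures, so the p-values measure the spread between libraries of the same line, which may be technical.

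ATRX is a chromatin remodeler of the SWI/SNF family. With the chaperone DAXX it deposits H3.3 in heterochromatin, at telomeres and at retrotransposons, while the HIRA complex, built from HIRA, UBN1 and CABIN1, deposits H3.3 at active genes and regulatory elements. ASF1A hands H3-H4 dimers to HIRA, and NASP keeps a soluble store of H3 and H4. Unlike the replicative H3 genes, the H3.3 genes *H3f3a* and *H3f3b* are expressed throughout the cell cycle and give polyadenylated transcripts.

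The H3.3 genes can be told apart by their RNA although they encode the same protein. Their coding sequences are both 411 nt long and differ at 95 positions, of which 81 are the third base of a codon, and the 136 encoded amino acids differ at 0 positions. The coding sequences were 76.9% identical, and their longest shared run was 23 nt. The first 150 nt are shown in the coding direction from GENCODE M21 (GRCm38), with the 32 bases that differ between the genes in capitals. *H3f3a* lies on the minus strand at chr1:180800832-180813943, and *H3f3b* on the minus strand at chr11:116021912-116027962.

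H3f3a: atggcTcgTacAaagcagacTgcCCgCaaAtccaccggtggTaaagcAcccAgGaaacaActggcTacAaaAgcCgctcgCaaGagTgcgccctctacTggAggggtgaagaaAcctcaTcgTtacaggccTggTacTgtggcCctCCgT

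H3f3b: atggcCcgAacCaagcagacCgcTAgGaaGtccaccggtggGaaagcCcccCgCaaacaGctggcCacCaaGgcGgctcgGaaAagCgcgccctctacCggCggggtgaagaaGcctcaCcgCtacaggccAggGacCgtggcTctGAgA

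Other copies in the genome limit the counts more than this pair does. Of the 31-base words in the *H3f3a* transcripts, 17.5% also occurred in transcripts of other genes, mainly *H3f3c* and annotated pseudogenes, and for *H3f3b* the share was 11.2%. For *Hira* it was 43.1%, mainly shared with the overlapping gene model *Gm28539*, for *Nasp* it was 6.28%, and for each of the other 6 genes it was below 1.5%. *Asf1a* also overlaps *Mcm9* on the opposite strand, and the strand setting of neither count table is stated, so the levels of *Hira*, *H3f3a*, *H3f3b*, *Nasp* and *Asf1a* are uncertain. Annotated noncoding genes or pseudogenes also overlap *Atrx*, *H3f3a*, *Hira*, *Ubn1* and *Macroh2a1*.

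The polyA libraries were unequally deep, with totals between 27544833 and 80772108 counts for WT, between 161036799 and 235346363 for sg5, and between 58918732 and 71896907 for sg6. The rRNA-depleted totals lay between 20135336 and 33187136 counts, and 10.4% to 15.5% of these counts belonged to transposable element (TE) loci. The mesenchymal label was checked on 12 marker genes, whose summed polyA level ranged between 21957 and 24571 CPM for WT, between 24343 and 24947 CPM for sg5, and between 29391 and 32124 CPM for sg6. Of these markers 5 were called in sg5 and 8 in sg6 in the polyA libraries, among them *Thy1* at log2 fold changes of -1.73 and 7.03, *Eng* at 2.17 and 1.73, and *Pdgfra* at -0.61 and -0.92. The calls made up 41.7% (sg5) and 66.7% (sg6) of the markers, beside 27.0% and 30.7% of all genes tested. With rRNA depletion 1 marker was called in sg5 (8.33%, beside 10.7% of genes) and 2 in sg6 (16.7%, beside 7.58%). *Thy1* was at only 0.25 CPM in its lowest polyA library. The summed polyA level of 10 markers of epithelial, immune, endothelial and neural cells was 11.2 to 13.6 CPM for WT, against 8.40 to 9.02 CPM for sg5 and 7.46 to 8.74 CPM for sg6. With rRNA depletion the sums were 10.4 to 11.9, 5.31 to 6.45 and 5.34 to 7.49 CPM, so the WT sum lay above both clones in each kind of library. These sums rest on *Cd68*, *Cdh1* and *Tubb3*, at up to 5.09, 4.82 and 4.12 CPM (polyA) and 1.97, 3.06 and 8.01 CPM (rRNA-depleted). Every other marker of these was at most at 0.445 CPM in any library. The epithelial cadherin gene *Cdh1* was called lower in all 4 comparisons with WT, at log2 fold changes of -1.64 and -3.23 (polyA) and -3.82 and -3.18 (rRNA-depleted) in sg5 and sg6, and the part of these markers in the results was not tested. The markers *Epcam*, *Krt18*, *Ptprc* and *Sox2* had at most 7 counts in any library. In bulk RNA, fewer cells that express a gene and less of its RNA per cell cannot be told apart. Levels are TMM-normalised CPM, that is, counts scaled to a fixed library total after edgeR's TMM factors, which make libraries of the same kind comparable.

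In WT cells the H3.3 genes far exceeded the genes of the deposition machinery. Per kb of transcript, *H3f3b* reached 593 ± 64.4 CPM (SD, n = 3) in the polyA libraries and *H3f3a* 188 ± 11.7 CPM, without overlap between them. *Macroh2a1* at 29.7 ± 2.81 CPM per kb and *Atrx* at 29.2 ± 2.53 CPM per kb overlapped each other and lay above the rest. *Ubn1*, *Nasp* and *Cabin1* followed at 19.9, 17.9 and 15.9 CPM per kb, with each overlapping its neighbour, and *Daxx*, *Hira* and *Asf1a* closed the order at 12.5, 10.3 and 9.58 CPM per kb, again with overlapping neighbours. The rRNA-depleted libraries began the same way, with *H3f3b* at 377 ± 67.0 and *H3f3a* at 113 ± 11.4 CPM per kb. There *Nasp* came next at 25.3 CPM per kb, overlapping *Macroh2a1* at 21.04 and *Atrx* at 20.9 CPM per kb, while *Daxx* and *Cabin1* were lowest at 5.09 and 4.63 CPM per kb.

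**Figure D1:**
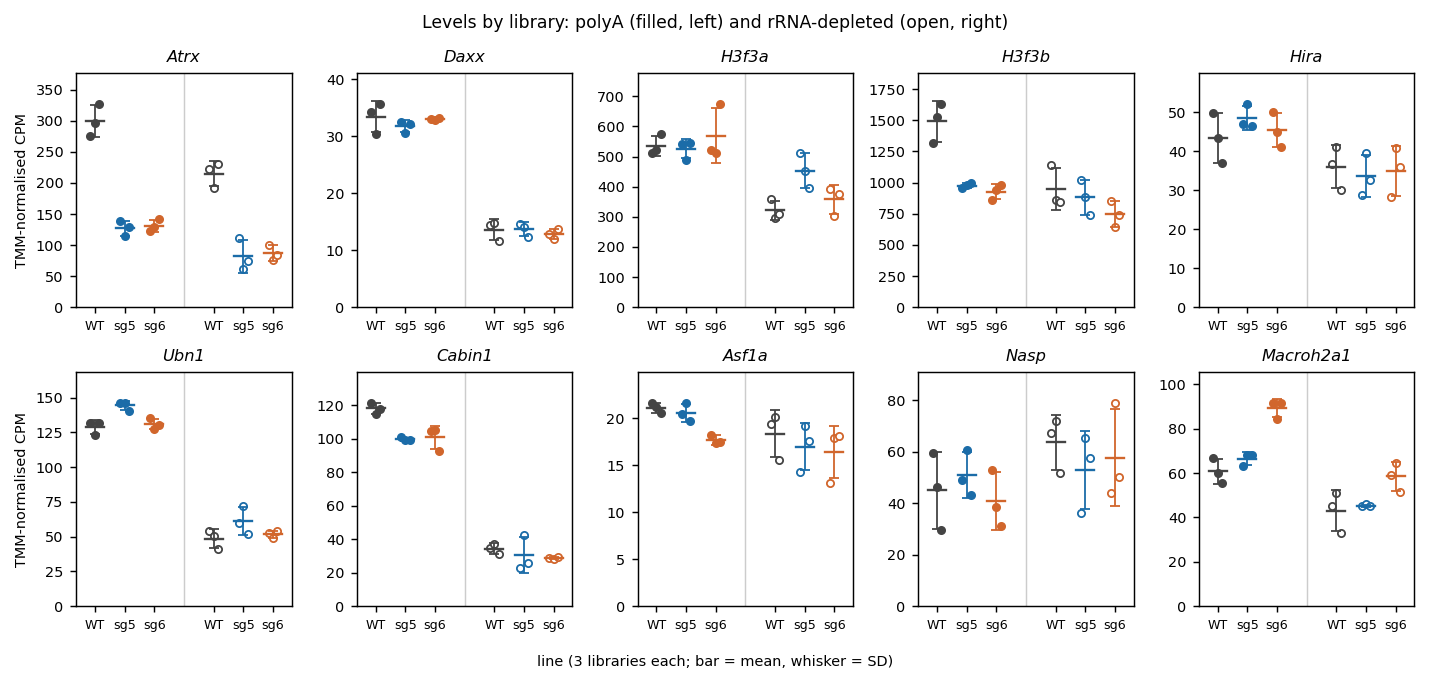
TMM-normalised CPM of each gene in every library (vertical axes, each starting at 0), for WT, sg5 and sg6; filled points on the left of each panel are polyA and open points on the right are rRNA-depleted libraries, bars are means and whiskers are SDs of 3 libraries. *Atrx* was lower in every KO library of both kinds, *H3f3b* was lower in every KO polyA library, and *Macroh2a1* was higher in every sg6 library than in WT libraries of the same kind.

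The targeted gene was checked first. In the polyA libraries, *Atrx* was at 275.9, 297 and 328 CPM in WT. It was at 138, 114 and 129 CPM in sg5. It was at 122, 129 and 141 CPM in sg6. Every library of either clone was below every WT library, and *Atrx* RNA fell by 1.24 ± 0.10 (SE) on the log2 scale in sg5 (edgeR quasi-likelihood test with Benjamini-Hochberg adjustment, adjusted p = 5.04e-05) and by 1.20 ± 0.10 in sg6 (edgeR adjusted p = 5.15e-05).

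The rRNA-depleted libraries gave the same direction. *Atrx* was at 222, 192 and 231 CPM in WT, 112, 60.8 and 73.9 CPM in sg5, and 101, 75.6 and 83.6 CPM in sg6. It fell by 1.39 ± 0.21 on the log2 scale in sg5 (edgeR adjusted p = 0.00138) and by 1.31 ± 0.20 in sg6 (edgeR adjusted p = 0.00227), again without overlap with WT. The clones themselves differed by -0.04 ± 0.10 in the polyA and -0.08 ± 0.20 in the rRNA-depleted libraries (sg5 versus sg6; edgeR adjusted p = 0.902 and 0.962). Each KO library still held at least 1092 *Atrx* counts, so the edited gene gave RNA in both clones, and counts per gene do not say whether that RNA encodes a full protein.

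Of the 10 genes, 3 fell and 0 rose in sg5 in the polyA libraries. Of the 15480 genes tested there, 27% were called in either direction, 13.4% lower and 13.6% higher. The edgeR test at an unadjusted p below 0.05 gave 1 gene higher, *Ubn1*, and DESeq2 also called it higher. In sg6, 4 fell and 1 rose, against 30.7% of all genes tested, with 14.6% lower and 16.1% higher. The share called in sg5 was close to that background, and whether the larger share in sg6 differed from it was not tested. In the rRNA-depleted libraries only *Atrx* passed the test among the 10, in sg5 (10.7% of the 13303 genes tested were called, and 3.88% of the 56086 genes and TE loci) and in sg6 (7.58% of genes, 2.89% of genes and TE loci). With a log2 fold change beyond 1 required as well, *Atrx* alone of the 10 passed in the 4 comparisons with WT, where 10.1% and 11.2% of genes did so in the polyA libraries of sg5 and sg6 and 7.35% and 5.75% in the rRNA-depleted libraries.

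**Figure D2:**
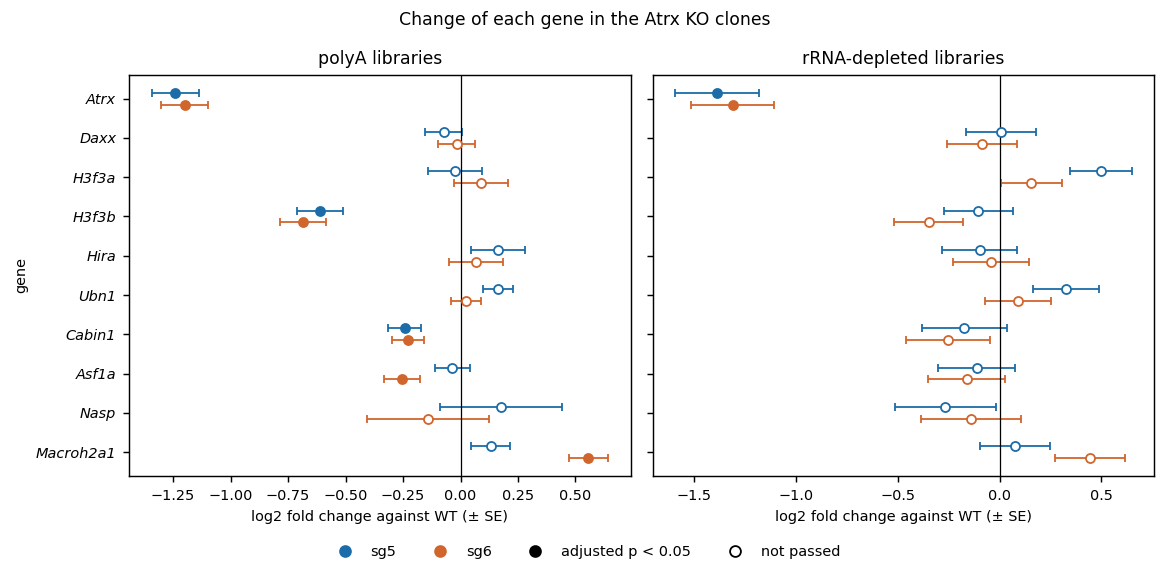
Log2 fold change of each gene against WT with its SE (horizontal axes) in polyA (left) and rRNA-depleted (right) libraries, with sg5 in blue and sg6 in orange; filled points passed an adjusted p below 0.05 in edgeR's quasi-likelihood test. *Atrx* lay near or beyond -1.2 in all 4 comparisons, *H3f3b* was at -0.61 and -0.69 in the polyA libraries, and *Daxx* stayed within 0.09 of 0 in all 4.

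DAXX, which binds ATRX and carries H3.3, showed no called change in its RNA. *Daxx* ranged from 30.4 to 35.7 CPM in WT, from 30.6 to 32.5 CPM in sg5 and from 32.9 to 33.3 CPM in sg6 in the polyA libraries. The sg5 and sg6 libraries did not overlap each other there, but the difference between the clones was -0.06 ± 0.08 on the log2 scale (edgeR adjusted p = 0.810). Against WT the log2 fold change of *Daxx* was -0.07 ± 0.08 in sg5 and -0.02 ± 0.08 in sg6 (edgeR adjusted p = 0.536 and 0.897). With rRNA depletion, where its lowest library held 253 counts, it was 0.01 ± 0.17 and -0.09 ± 0.17.

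The H3.3 genes behaved differently from each other. *H3f3b*, the more abundant of the pair, was at 1315, 1525 and 1633 CPM in WT, 954, 980.0 and 993 CPM in sg5, and 859, 941 and 982 CPM in sg6 in the polyA libraries. No KO library reached the lowest WT library. *H3f3b* fell by 0.61 ± 0.10 on the log2 scale in sg5 (edgeR adjusted p = 0.00211) and by 0.69 ± 0.10 in sg6 (edgeR adjusted p = 0.000955). With rRNA depletion the groups overlapped, at 1143, 863 and 840 CPM in WT, 1023, 886 and 739 CPM in sg5, and 851, 643 and 743 CPM in sg6. There the log2 fold change was -0.10 ± 0.17 in sg5 and -0.35 ± 0.17 in sg6, and neither passed (edgeR adjusted p = 0.820 and 0.423).

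*H3f3a* had no called change in the polyA libraries, where it was at 511, 521 and 573 CPM in WT, 541, 490 and 546 CPM in sg5, and 523, 510 and 675 CPM in sg6. Its log2 fold change was -0.03 ± 0.12 in sg5 and 0.09 ± 0.12 in sg6 (edgeR adjusted p = 0.898 and 0.604). After rRNA depletion it was at 358, 297 and 308 CPM in WT, 513, 452 and 396 CPM in sg5, and 393, 304 and 376 CPM in sg6. Every sg5 library there was above every WT and every sg6 library, yet the log2 fold change of 0.50 ± 0.15 did not pass (edgeR adjusted p = 0.0921). It passed in 2 of 7 alternative settings, among them the fit of genes only (edgeR adjusted p = 0.0497), and in 0 of 9 fits with a library left out. With factors from its own chromosome 1 it was at 0.40 ± 0.14 (edgeR adjusted p = 0.143).

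Set within each library, the share of *H3f3b* in the pair was lower than in WT in both clones and both kinds of library. The genes behind this differed in sg5. There the log2 fold changes of *H3f3b* and *H3f3a* were -0.61 and -0.03 with polyA selection, but -0.10 and 0.50 with rRNA depletion. *H3f3b* made up 72.0%, 74.5% and 74.0% of the summed *H3f3a* and *H3f3b* CPM in the WT polyA libraries. The share was 63.8%, 66.7% and 64.5% in sg5 and 62.1%, 64.8% and 59.3% in sg6. With rRNA depletion it was 76.2%, 74.4% and 73.2% in WT, 66.6%, 66.2% and 65.1% in sg5, and 68.4%, 67.9% and 66.4% in sg6. No KO library of either kind overlapped WT. Clone minus WT, the mean share differed by -8.52 (sg5) and -11.4 (sg6) percentage points with polyA selection and by -8.59 and -7.02 points with rRNA depletion. Each of these 4 differences had an exact two-sided permutation p of 0.1, the smallest this test can give with 3 libraries against 3. This share does not depend on how libraries are scaled to each other, but it does carry any offset between the chromosomes of the pair.

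Such an offset was measured. The 1250 other genes tested on chromosome 11, which holds *H3f3b*, were shifted as a whole in the polyA libraries, with median log2 fold changes of -0.25 (sg5) and -0.16 (sg6), whereas for the 910 others on chromosome 1, which holds *H3f3a*, the medians were 0.07 and 0.03. The median over all genes was -0.0024 and -0.0057. With TMM factors taken from the genes of chromosome 11 alone, an alternative chosen after these medians were seen, *H3f3b* was lower by less but still passed in the polyA libraries, at -0.37 ± 0.10 in sg5 (edgeR adjusted p = 0.0158) and -0.54 ± 0.10 in sg6 (edgeR adjusted p = 0.00295). In the rRNA-depleted libraries the chromosome 11 median was -0.26 in sg5 and -0.07 in sg6. The chromosome 1 medians there were 0.14 and 0.06, beside 0.08 and 0.04 over all genes. *H3f3b* with its own chromosome's factors turned to 0.16 ± 0.14 in sg5 in these libraries (edgeR adjusted p = 0.599) and was at -0.26 ± 0.14 in sg6 (edgeR adjusted p = 0.487). With chromosome 1 factors *H3f3a* was at 0.40 ± 0.14 in sg5 there. The part of these offsets in the *H3f3b* share was not tested. A change of the chromosome as a whole and a change of the gene cannot be told apart in single clones.

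**Figure D3:**
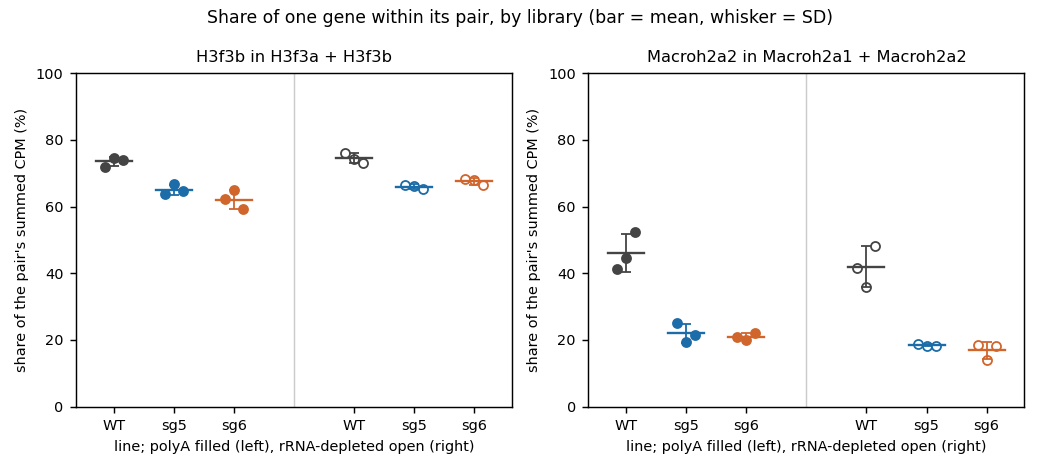
Share of *H3f3b* in the summed CPM of *H3f3a* and *H3f3b* (left) and of *Macroh2a2* in that of *Macroh2a1* and *Macroh2a2* (right) in each library, in percent; filled points are polyA, open points rRNA-depleted libraries, bars are means and whiskers SDs of 3 libraries. WT lies above both clones in all 4 sets of libraries.

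Whether the change against WT differed between the kinds of library was tested over 14945 genes. The edgeR test called 0 of the 10 genes in sg5, where 0.435% of genes were called, and 0 in sg6, where 0.161% were, and DESeq2 called 0 as well. At an unadjusted p below 0.05 there were 2 in sg5 and 0 in sg6. The 2 were the H3.3 genes, with *H3f3a* higher in the rRNA-depleted change by 0.50 ± 0.17 (unadjusted p = 0.00984, edgeR adjusted p = 0.322) and *H3f3b* by 0.49 ± 0.18 (unadjusted p = 0.0128, edgeR adjusted p = 0.351). The kinds of library also differ in where they were prepared and in the program that counted them, which cannot be told apart from the RNA selection.

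Among the HIRA complex genes, only *Cabin1* was called. *Hira* spanned 37.0 to 49.7 CPM in WT, 46.4 to 52.2 CPM in sg5 and 41.2 to 50.0 CPM in sg6 in the polyA libraries, and its groups overlapped in both kinds of library. Its log2 fold changes against WT ran from -0.10 to 0.16, with no call (edgeR adjusted p of 0.345 or more). *Ubn1*, whose product joins HIRA to H3.3, was at 132, 123 and 132 CPM in WT, 146, 146 and 141 CPM in sg5, and 135, 128 and 130 CPM in sg6. Every sg5 polyA library was above every WT and sg6 library, but the log2 fold change of 0.16 ± 0.06 did not pass (edgeR adjusted p = 0.0916), although it did in DESeq2 (adjusted p = 0.0398). With factors from its own chromosome 16, whose median was 0.11, *Ubn1* was at 0.06 ± 0.06 in sg5.

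*Cabin1*, the third subunit, was lower in both clones in the polyA libraries. It was at 122, 115 and 118 CPM in WT, 101, 99.4 and 99.3 CPM in sg5, and 104, 105 and 92.9 CPM in sg6, and neither clone overlapped WT. The fall was 0.24 ± 0.07 on the log2 scale in sg5, a decrease that passed (edgeR adjusted p = 0.0304), and *Cabin1* decreased by 0.23 ± 0.07 in sg6 (edgeR adjusted p = 0.0356). Both calls were narrow. The sg5 call was lost without any 1 of the WT or sg5 libraries, and the sg6 call without any 1 of the 9 polyA libraries except sg5 replicate 1, with adjusted p up to 0.0960 and 0.119. The median of the 773 other genes of chromosome 10 was -0.12 in both clones, and with factors from that chromosome *Cabin1* was at -0.14 ± 0.07 and -0.13 ± 0.07 and passed in neither (edgeR adjusted p = 0.174 and 0.192). Its rRNA-depleted values were -0.17 ± 0.21 in sg5 and -0.25 ± 0.21 in sg6 (edgeR adjusted p = 0.744 and 0.717).

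The chaperones that supply H3 and H4 to these complexes gave 1 further call. *Asf1a*, on the same chromosome as *Cabin1*, was at 21.6, 21.1 and 20.5 CPM in WT, 20.5, 21.6 and 19.7 CPM in sg5, and 18.2, 17.4 and 17.4 CPM in sg6 in the polyA libraries. The sg6 libraries lay below all others, and *Asf1a* fell by 0.25 ± 0.08 on the log2 scale in sg6 (edgeR adjusted p = 0.0344), while it was at -0.04 ± 0.08 in sg5 (edgeR adjusted p = 0.770). The difference between the clones was 0.22 ± 0.08 (edgeR adjusted p = 0.174; DESeq2 adjusted p = 0.0348). The sg6 call was lost without any 1 of the polyA libraries other than WT replicate 3 and sg5 replicate 1 (adjusted p up to 0.106), and with chromosome 10 factors *Asf1a* was at -0.15 ± 0.08 (edgeR adjusted p = 0.153). Its rRNA-depleted groups overlapped, at -0.11 ± 0.19 in sg5 and -0.16 ± 0.19 in sg6.

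*Nasp* varied more between libraries of a line than between lines. In the polyA libraries it was at 59.6, 46.2 and 29.6 CPM in WT, 48.9, 60.9 and 43.2 CPM in sg5, and 52.9, 38.7 and 31.04 CPM in sg6. Its log2 fold change was 0.18 ± 0.27 in sg5 and -0.14 ± 0.27 in sg6, and -0.27 ± 0.25 and -0.14 ± 0.25 in the rRNA-depleted libraries, with no call. The summed level of 20 S phase genes was set beside it. That sum was 3352, 2829 and 1402 CPM in the WT, 2210, 3255 and 2442 CPM in the sg5, and 2530, 2146 and 1396 CPM in the sg6 polyA libraries. In 6 of the 6 groups, over both kinds of library, the library with the most *Nasp* RNA was also the library with the highest S phase sum. The order of the other libraries was not always shared. In sg5 polyA, replicate 1 had more *Nasp* RNA than replicate 3 but a lower sum. In sg6 with rRNA depletion, replicate 3 had more than replicate 1 (50.2 against 44.2 CPM) but a lower sum (2529 against 2604 CPM). How many other genes share the top library was not counted. The part of cell cycle stage in the level of *Nasp* was not tested.

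*Macroh2a1*, which encodes the histone variant macroH2A1, a binding partner of ATRX in chromatin, rose in sg6. In the polyA libraries it was at 66.9, 59.9 and 55.5 CPM in WT, 63.2, 68.3 and 68.1 CPM in sg5, and 91.7, 84.6 and 91.8 CPM in sg6. The sg6 libraries lay above all others, while sg5 and WT overlapped. *Macroh2a1* rose by 0.56 ± 0.08 on the log2 scale in sg6 (edgeR adjusted p = 0.00123), was at 0.13 ± 0.08 in sg5 (edgeR adjusted p = 0.284), and was lower in sg5 than in sg6 by -0.42 ± 0.08 (edgeR adjusted p = 0.0210). It was the only one of the 10 genes called between the clones in the polyA libraries, where 4.79% of genes were. That call was lost without any 1 of the sg5 or sg6 polyA libraries, with adjusted p up to 0.0834. In the rRNA-depleted libraries, where 1.57% of genes were called between the clones, edgeR called 0 of the 10, DESeq2 called 0, and 1, *H3f3a*, had an unadjusted p below 0.05. *Macroh2a1* was at 45.3, 51.0 and 32.9 CPM in WT, 45.2, 45.9 and 45.1 CPM in sg5, and 59.4, 64.7 and 51.5 CPM in sg6 there. The sg6 libraries again lay above the WT and sg5 libraries, at 0.44 ± 0.17 against WT, but the change did not pass (edgeR adjusted p = 0.268).

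The chromosome of *Macroh2a1* was offset in sg6. Over the 592 other genes tested on chromosome 13, the polyA median was 0.24 for sg6 and -0.06 for sg5 on the log2 scale. Within 5 Mb of *Macroh2a1*, 60 of 84 genes were above 0 in sg6, with 31 called higher and 5 called lower. With TMM factors from chromosome 13, *Macroh2a1* was higher in sg6 by 0.28 ± 0.09 (edgeR adjusted p = 0.0321), and the difference between the clones shrank to -0.10 ± 0.09 and did not pass (edgeR adjusted p = 0.375). *Atrx* differed from this pattern, since the median of chromosome X was -0.01 in sg5 and -0.07 in sg6 and *Atrx* was at -1.22 ± 0.11 and -1.15 ± 0.11 with chromosome X factors.

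**Figure D4:**
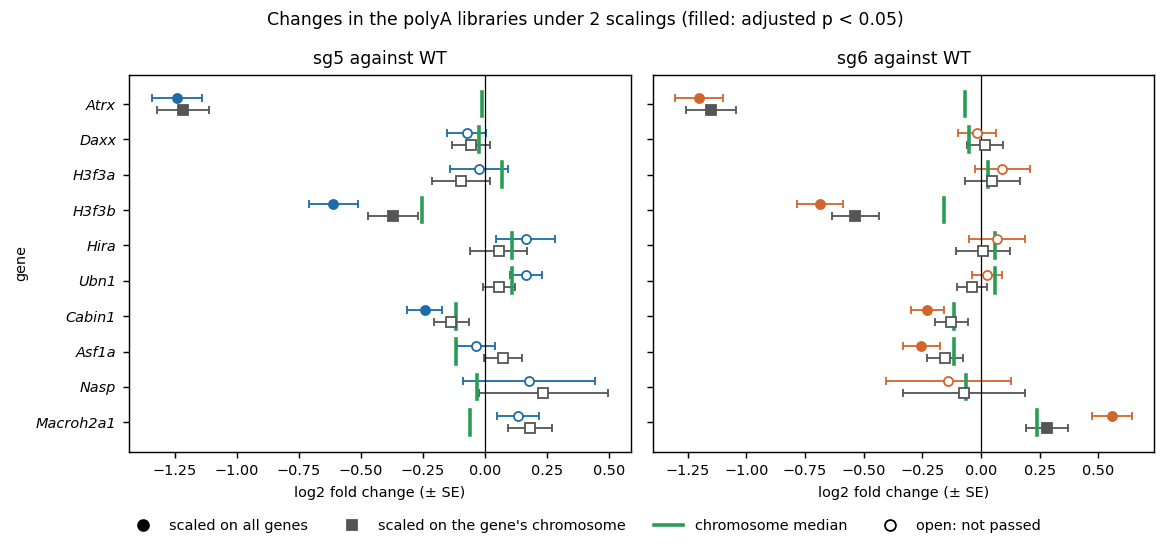
Log2 fold change with SE of each gene in the polyA libraries (horizontal axes), scaled on all genes (circles) or on the genes of its own chromosome (grey squares), with the median of the other genes of that chromosome as a green line; filled symbols passed an adjusted p below 0.05. *Cabin1* in both clones and *Asf1a* in sg6 passed only when scaled on all genes, while *Atrx*, *H3f3b* and, in sg6, *Macroh2a1* passed under both scalings.

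Of 43 other genes of histone supply and variant exchange, all tested in both tables, 2 rose and 3 fell in sg5 and 2 rose and 5 fell in sg6 in the polyA libraries, and 0 rose and 2 fell in each clone in the rRNA-depleted libraries (at an unadjusted p below 0.05 and by DESeq2, 0 were higher there as well). Their polyA medians were -0.01 (sg5) and -0.19 (sg6) on the log2 scale and their rRNA-depleted medians -0.12 and -0.15, beside -0.0024, -0.0057, 0.08 and 0.04 over all genes. The share called was 11.6% (sg5) and 16.3% (sg6) in the polyA libraries, below the 27.0% and 30.7% of all genes. With rRNA depletion it was 4.65% in each clone, below the 10.7% (sg5) and 7.58% (sg6) of all genes. Without WT replicate 2 the sg5 polyA count was 2 in all, and without sg5 replicate 1 it was 3. The genes that passed edgeR's threshold in the same direction in both clones were *Macroh2a2*, *Sp100* and *Ipo4*.

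*Macroh2a2*, which encodes the other macroH2A, fell in both clones and both kinds of library. It was at 47.2, 48.1 and 61.0 CPM in WT, 21.03, 16.4 and 18.6 CPM in sg5, and 24.2, 21.3 and 25.9 CPM in sg6 in the polyA libraries. The log2 fold change was -1.48 ± 0.14 in sg5 (edgeR adjusted p = 9.35e-05) and -1.13 ± 0.14 in sg6 (edgeR adjusted p = 0.000350), and in the rRNA-depleted libraries -1.58 ± 0.16 (edgeR adjusted p = 7.80e-05) and -1.37 ± 0.16 (edgeR adjusted p = 0.000219). As a share of the summed CPM of both macroH2A genes, a ratio chosen after these values were seen, *Macroh2a2* held 46.1% ± 5.67 (SD, n = 3) of the polyA signal of WT cells, against 21.9% ± 2.81 for sg5 and 20.996% ± 0.98 for sg6. The rRNA-depleted shares were 41.9% ± 6.17 for WT, 18.4% ± 0.32 for sg5 and 16.9% ± 2.54 for sg6. No KO library overlapped WT, and the exact two-sided permutation p was 0.1 for each, again the smallest that test can give. The share also carries any offset between chromosome 10, which holds *Macroh2a2*, and chromosome 13, which holds *Macroh2a1*. PolyA medians were -0.12 for chromosome 10 (both clones) and, for chromosome 13, -0.06 (sg5) and 0.24 (sg6). The part of this offset in the share was not tested. *Macroh2a2* shares 15.8% of its 31-base words with *H2afy3*, and *Aifm2* overlaps it on the opposite strand. The level of *Macroh2a2* is therefore uncertain.

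*Sp100*, a component of the PML nuclear bodies in which DAXX resides, showed the largest fall of the 43 genes in each comparison with WT. It was at 18.7, 28.5 and 32.2 CPM in WT, 4.61, 4.93 and 4.66 CPM in sg5, and 0.77, 0.88 and 1.08 CPM in sg6 in the polyA libraries. It fell by 2.48 ± 0.20 on the log2 scale in sg5 (edgeR adjusted p = 4.58e-05) and dropped by 4.86 ± 0.23 in sg6 (edgeR adjusted p = 2.18e-06), a difference of 2.38 ± 0.22 between the clones (edgeR adjusted p = 0.000257). After rRNA depletion the WT libraries held 229 to 421 *Sp100* counts, those of sg5 only 6 to 12 and those of sg6 3 to 5. There it was at -4.79 ± 0.37 in sg5 (edgeR adjusted p = 6.74e-06), a change that differed from the polyA change by -2.35 ± 0.39 (edgeR adjusted p = 0.0172), and at -5.88 ± 0.40 in sg6 (edgeR adjusted p = 2.03e-06). The difference between the clones did not pass there, at 1.09 ± 0.48 (edgeR adjusted p = 0.595). Of its 31-base words, 8.99% occur in other genes, so counting may split its reads.

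*Ipo4*, an importin that carries H3 and H4 into the nucleus, rose in the polyA libraries. It was at 93.9, 77.0 and 74.7 CPM in WT, 112, 116 and 111 CPM in sg5, and 131, 119 and 107 CPM in sg6. The rise was 0.46 ± 0.11 on the log2 scale in sg5 (edgeR adjusted p = 0.0114) and 0.54 ± 0.11 in sg6 (edgeR adjusted p = 0.00470). The sg5 call was lost without WT replicate 2 (edgeR adjusted p = 0.0533), and in the rRNA-depleted libraries *Ipo4* was at 0.31 ± 0.21 and 0.38 ± 0.21 and did not pass. Of its words, 53.1% are shared with the gene model *Gm49378*.

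The other calls passed edgeR's threshold in 1 clone each. *Supt16*, a FACT subunit, rose and *H2az2*, an H2A.Z gene, fell in sg5, while *Zmynd11*, a reader of methylated H3.3, rose and *Pml*, *Ubn2* and *Ep400* fell in sg6. *H2az2* was at -0.40 ± 0.10 in sg5 and lies on chromosome 11, whose polyA median there was -0.25. Tested between the clones, *Zmynd11* differed by -0.35 ± 0.07 (sg5 minus sg6, edgeR adjusted p = 0.0203), and the other 5 did not pass, at edgeR adjusted p of 0.161 to 0.550. Like *Macroh2a1*, *Zmynd11* lies on chromosome 13, whose median between the clones was -0.32 in the polyA libraries. The part of that offset in the *Zmynd11* difference was not tested. The genes of CAF-1, the chaperone of replicative H3, were at 0.03 and 0.24 in sg5 and between -0.31 and -0.30 in sg6 on the log2 scale in the polyA libraries. The 4 genes of centromeric H3 and its loading factors ran from -0.20 to 0.16 in sg5 and from -0.52 to -0.07 in sg6. For these 6 genes edgeR called 0 in either clone and either kind of library, 0 had an unadjusted p below 0.05, and DESeq2 called 0.

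**Figure D5:**
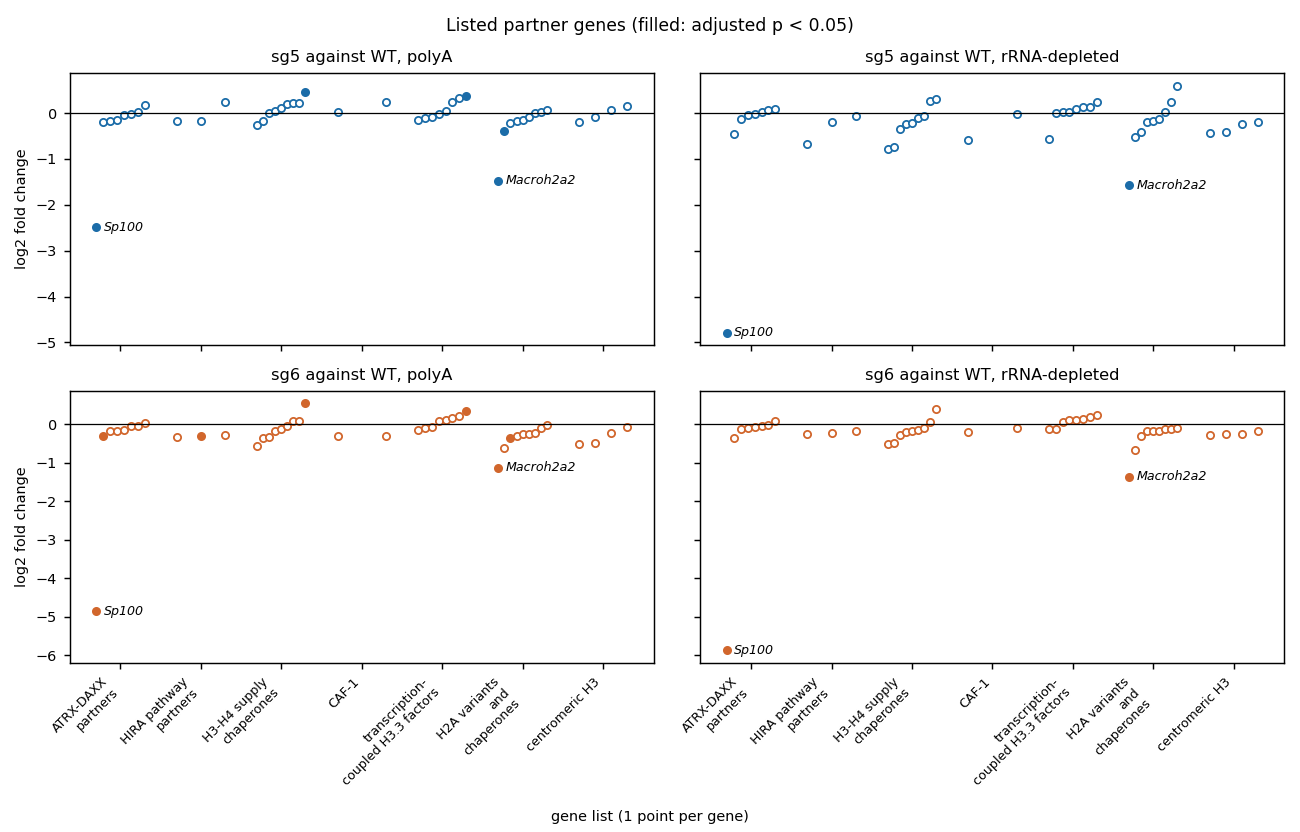
Log2 fold change against WT (vertical axes) of the 43 listed genes, 1 point per gene, grouped by list along the horizontal axis, for sg5 (top) and sg6 (bottom) in polyA (left) and rRNA-depleted (right) libraries; filled points passed an adjusted p below 0.05. *Sp100* and *Macroh2a2* are the labelled points, filled in all 4 panels and beyond -1, while every other point lies within 1 of 0.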

How the data were processed

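PolyA and rRNA-depleted RNA-seq of WT, sg5 and sg6 MPCs gave 18 libraries, 3 per group, assigned by their titles. For polyA, the authors ran Salmon (v0.8.2 per the submitters' processing notes) on mm10 known genes with tximport and deposited the expected counts, estimated per gene and whole numbers here. For rRNA-depleted RNA, the authors aligned with STAR (v2.27.10a per the same notes) and deposited TElocal counts of genes and TE loci. No normalization was applied to either, all per-sample columns were used, and strand settings are not stated.

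Here, edgeR 4.0.16 (R 4.3.3) fitted the 9 libraries of each kind together: filterByExpr (minimum count 10, total 15), TMM, quasi-likelihood test, and Benjamini-Hochberg adjustment over every feature tested. A gene was called at an adjusted p below 0.05. SE is the absolute log2 fold change divided by the square root of F. Library kinds were compared by the interaction of line and kind in all 18 libraries. Ratios within a library were compared by exact permutation (scipy). No gene set test was run.

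Alternatives were DESeq2 1.42.0, median-of-ratios factors, no filter, genes only, the replicate block, only the groups compared, each library left out, and, added after seeing the data, TMM factors from a gene's own chromosome. The edgeR script was tested on simulated counts. For sg5 versus WT, it recovered 66 of 85 features changed by 1 on the log2 scale in polyA counts. In rRNA-depleted counts, with genes and TE loci together, it recovered 7 of 89. For a change of 2, it recovered 114 of 115 and 60 of 111. The changed features were drawn at random from genes and TE loci alike, and only 13303 of the 56086 rRNA-depleted features tested were genes. These recoveries therefore do not give the power for the 10 genes. A change of theirs that did not pass with rRNA depletion may still have been missed. The genes and lists were chosen with earlier results of these data known. All 10 genes are named, and of the 43 listed others those that passed the same way in both clones in polyA libraries; single-clone calls were named after their values were seen. Gene identifiers were matched through the RefSeq gene table, and positions, transcript lengths (longest basic coding transcript) and sequences come from GENCODE M21 (GRCm38). Shared sequence counts 31-base words of a gene's transcripts.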

Additional observations from a re-analysis of the deposited data

Results flagged for a closer look

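*Macroh2a1* is listed because the sg5 and sg6 clones differed in it under the same contrast with WT, by a test of the difference itself. In the polyA libraries the difference was -0.42 ± 0.08 on the log2 scale (edgeR adjusted p = 0.0210), with every sg6 library above every sg5 library. The median of the genes of chromosome 13 moved with it, and with TMM factors from those genes the difference was -0.10 ± 0.09 (edgeR adjusted p = 0.375). The call was also lost without any 1 of the sg5 or sg6 polyA libraries, at edgeR adjusted p of 0.0543 to 0.0834. Groups of 3 libraries are too small for a check of single outlying values.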

How the results depend on the processing

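In the polyA libraries, DESeq2 gave 1 gene higher in sg5 (0 in the reported fit) and 2 called between the clones (1 reported). Of the 4 genes lower in sg6, 2 were left with no filter, with only the groups compared, and with own-chromosome factors, which also left 0 between the clones. With a log2 fold change beyond 1, 1 gene was lower in each clone, 0 were higher in sg6, 0 differed between the clones, and 2 of the other listed genes were called in each clone. In the rRNA-depleted libraries of sg5, 1 gene was higher with genes only, as it was with the replicate block, and the other listed genes called rose from 2 to 5 with genes only, with or without the filter, and to 6 with the replicate block. The cause was not tested. Leaving out each polyA library in turn gave 2 to 3 genes lower in sg5, 2 to 4 lower in sg6, 0 to 1 between the clones, and 2 to 6 and 5 to 9 of the other listed genes in sg5 and sg6; the rRNA-depleted counts did not move.

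Same-numbered libraries did not deviate together throughout. Correlations of their deviations from the group means ran from 0.0257 to 0.4305 for polyA and from -0.229 to 0.638 for rRNA-depleted libraries. Between libraries of different number they ran lower, from -0.4615 to 0.2515 for polyA and from -0.6051 to 0.5555 for rRNA-depleted libraries. Not every library correlated best with its own number, and the labels do not say what the numbers stand for, so they were not taken as pairs. Shared handling of same-numbered libraries was not tested. The block changed no call among the 10 genes other than *H3f3a* in sg5 (adjusted p = 0.0232).

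Over single genes, 37 alternatives lost a call, 4 gained one and 0 turned the sign of a called value. Values that were not called changed sign in 80 fits, over 39 of 92 results. The calls of *Atrx* in all 4 comparisons, and of *H3f3b* in both clones and *Macroh2a1* in sg6 in the polyA libraries, were kept in every alternative run at the adjusted p threshold. Counts of *Daxx*, *Asf1a* and *Cabin1* in the rRNA-depleted libraries were as low as 253, 305 and 598, and their SEs were wider there than in the polyA libraries.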
